A study of Homo sapiens with 9 samples.

Results

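DNA replication and mitosis genes were followed in 786-0 cells, a clear cell renal cell carcinoma (ccRCC) line in which HIF2α was either blocked with the antagonist PT2385 or knocked out. The 59 genes were taken by name from the 58735 gene identifiers of the count table and split by the stage at which their products act. The 29 S-phase genes license and fire replication origins, copy DNA, supply nucleotides or control the entry to S phase, whereas the 30 mitotic genes act in the entry to mitosis, at the spindle, at the centromere or in the exit from mitosis. All 59 had enough counts to be tested in every comparison.

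RNAseq was performed in 9 libraries, 3 from each of 3 groups, which are called control, PT2385 and KO here. Control cells were 786-0 WT cells, and PT2385 cells were 786-0 WT cells given 10 μM PT2385 for 48 h. KO cells were 786-0 cells labelled as a HIF2α knockout, whereas the study's text describes only siRNA silencing of HIF2α. How the knockout was made and whether it is 1 clone are not given in the sources used here, so anything that sets this KO line apart from its parent cannot be told apart from the loss of HIF2α. All 3 groups were kept in normoxia (21% O2) for 48 h, lack functional VHL and carry an inactivating HIF1α mutation, so that the WT cells express HIF2α constitutively. The labels number the replicates 1 to 3 but do not state that they were separate cultures, and p-values therefore measure only the spread between these libraries. As each library holds the RNA of a whole culture, fewer cells in a cell cycle phase and less RNA per cell cannot be told apart.

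Library totals ran from 11881000 to 14730081 counts. EPAS1, which encodes HIF2α, stood at 271, 265 and 233 CPM (counts scaled to a common library size, with TMM factors for composition) in control replicates 1 to 3, at 248, 248 and 219 with PT2385, and at 20.3, 25.0 and 21.1 in KO cells. EPAS1 RNA was therefore lower in every KO library than in all other libraries. RNA level alone does not show how HIF2α was lost, and these data hold no protein level. The renal markers PAX8, PAX2, VIM, KRT8, KRT18, CDH6 and CA12 were detected in all libraries. Of 7 markers of other cell types, 5 were at 0 in every control library. The summed level of all 7 was 2.27 to 2.56 CPM in control, 1.94 to 2.77 with PT2385 and 0.0688 to 0.232 in KO cells, nearly all of it PDGFRB in the WT cells. PDGFRB, a receptor of mesenchymal cells, was lower in KO cells (log2 fold change -4.50), and its part in the results was not tested. It held only 27, 31 and 28 counts in control and 2, 2 and 0 in KO cells. COL3A1, also a marker of mesenchymal cells, was at 0 in every library. The leukocyte, endothelial and liver markers PTPRC, CD3E, PECAM1, CDH5 and ALB were at or near 0 in all groups.

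Cells copy their genome once per division. The MCM2-7 helicase is loaded onto origins by the origin recognition complex, CDC6 and CDT1, and is switched on by CDC45, the GINS complex and MCM10. Many of these genes are transcribed at the G1/S transition by E2F factors. A second, later wave of genes encodes cyclin B, mitotic kinases, kinesins and checkpoint proteins. It is controlled by the DREAM complex and, in G2, by the B-MYB-MuvB complex and FOXM1. Promoters of this second wave often carry a cell cycle homology region (CHR) together with CCAAT boxes.

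This division could be read in the promoter sequences. RefSeq promoters (GRCh38.p14, 250 bases before to 50 bases after the start) were given for 26 of the 29 S-phase and 24 of the 30 mitotic genes. An E2F word, any of TTTGGCGC, TTTCCCGC, TTTCGCGC or TTTGCCGC on either strand, occurred in 16 of the 26 S-phase promoters (61.5%), in 3 of the 24 mitotic promoters (12.5%) and in 3.33% of all 27305 promoters of this length. The CHR word TTTGAA, searched on both strands, occurred in 1 S-phase promoter (3.85%), in 15 mitotic promoters (62.5%) and in 15.4% of all promoters. The word CCAAT, likewise on both strands, was found in 16 S-phase (61.5%) and 19 mitotic promoters (79.2%), against 35.7% of all. The core of the hypoxia response element, ACGTG or GCGTG on either strand, was in 73.1% of the S-phase and 62.5% of the mitotic promoters. It was in 48.4% of all promoters and in 63.6% of the promoters of the 10362 genes tested in KO cells that had one. In the promoters of those tested genes the E2F, CHR and CCAAT words were in 5.57%, 9.71% and 37.3%. The E2F and CHR words thus divided the lists. The HIF core word was about as common in members as in the tested genes, and more common than in all promoters. Each match describes letters only, not binding.

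The following windows hold the 120 bases that end just before the RefSeq start, written 5′ to 3′ on the gene's strand. The first 3 belong to the S-phase genes that differed most clearly between replicate numbers in the count data, among those whose window holds an E2F word, and capitals mark E2F and CCAAT words. They are E2F1 at chr20:33686386-33686505 on the minus strand, E2F2 at chr1:23531234-23531353 on the minus strand and UHRF1 at chr19:4909381-4909500 on the plus strand.
E2F1: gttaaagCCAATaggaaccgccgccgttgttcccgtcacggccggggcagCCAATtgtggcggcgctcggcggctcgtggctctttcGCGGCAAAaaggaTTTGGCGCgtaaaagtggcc
E2F2: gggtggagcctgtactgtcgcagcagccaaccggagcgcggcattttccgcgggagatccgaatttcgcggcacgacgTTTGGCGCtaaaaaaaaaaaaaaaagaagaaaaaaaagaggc
UHRF1: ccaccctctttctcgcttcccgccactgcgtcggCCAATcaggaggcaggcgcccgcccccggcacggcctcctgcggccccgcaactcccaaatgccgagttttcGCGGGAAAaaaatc

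The next 4 belong to mitotic genes that were lower in KO cells with small adjusted p, among those whose window holds a CHR word, and capitals mark CHR and CCAAT words. KIF23 at chr15:69414229-69414348, BUB1B at chr15:40160949-40161068 and PLK1 at chr16:23678769-23678888 lie on the 2 chromosomes set apart in the KO line, and HMMR at chr5:163460512-163460631 was added as the first such gene of another chromosome. All 4 lie on the plus strand. HMMR carries the CHR word as an immediate repeat.
KIF23: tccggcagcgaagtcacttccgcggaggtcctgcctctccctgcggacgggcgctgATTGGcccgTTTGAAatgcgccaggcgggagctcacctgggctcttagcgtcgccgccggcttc
BUB1B: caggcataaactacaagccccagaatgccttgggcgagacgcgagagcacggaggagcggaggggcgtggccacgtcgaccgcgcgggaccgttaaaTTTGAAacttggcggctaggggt
PLK1: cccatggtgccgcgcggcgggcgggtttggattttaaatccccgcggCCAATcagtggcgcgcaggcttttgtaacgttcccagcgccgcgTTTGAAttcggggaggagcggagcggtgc
HMMR: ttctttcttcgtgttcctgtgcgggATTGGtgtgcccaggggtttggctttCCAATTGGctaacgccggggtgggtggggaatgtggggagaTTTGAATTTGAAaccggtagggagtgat

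The members covered a wide range of levels in control cells. Per kilobase of exonic length, the lowest was PRC1, a spindle midzone protein, at 0.875 CPM per kb, followed by POLE2 at 2.09 and CCNE1 at 2.74. The highest were MYBL2 at 132, TPX2 at 118 and CDC20 at 117 CPM per kb. MYBL2 encodes B-MYB, the MuvB partner of the G2 wave, TPX2 targets Aurora A to the spindle and CDC20 activates the anaphase promoting complex. Exons of 20 members overlap another gene, and the strand setting of the counting is not given in the sources used here. The count of PRC1 is the least certain, since it held 477 counts over all libraries against 1123 for a read-through transcript on the same strand. NUSAP1 had 1788 counts against 9872 for OIP5-AS1 on the same strand, and GINS2 had 3451 against 18805 for GSE1 on the opposite strand. Also on the same strand, FEN1 had 7308 against 41258 for FADS2 and CENPA 5418 against 20119 for SLC35F6. On the opposite strand, RFC4 had 4777 against 21000 for EIF4A2, CCNE2 3616 against 8766 for INTS8 and CDC25C 1912 against 8845 for FAM53C.

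**Figure D1:**
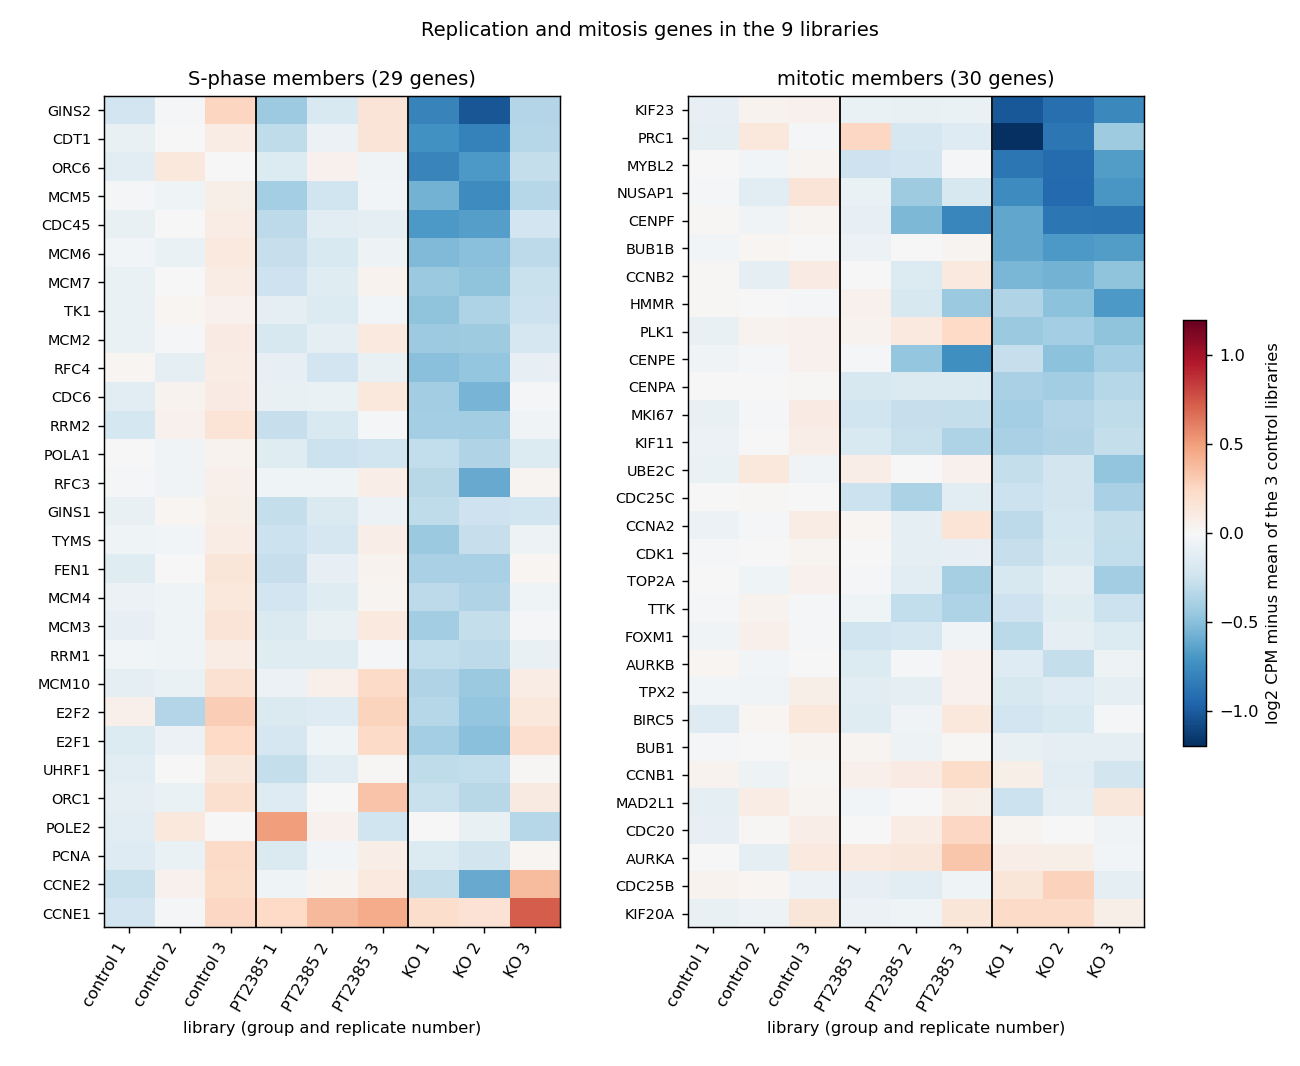
Level of each S-phase (left) and mitotic (right) gene in the 9 libraries, as log2 CPM minus the mean of the 3 control libraries, with genes ordered by their change in KO cells. Most genes are blue in the KO columns, and the S-phase genes are less blue in KO replicate 3 than in KO replicates 1 and 2.

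PT2385 had a small effect on the members, and the calls it gave were all lower and all mitotic. Only MKI67 and KIF11 were called out of 59 (edgeR quasi-likelihood test, adjusted p under 0.05), whereas 7.70% of the 15089 genes tested were called, 4.62% lower and 3.08% higher. None of the 29 S-phase genes was called. Their median log2 fold change was -0.11 and that of the mitotic genes was -0.07, against 0 for all genes. In 10 members the 3 PT2385 libraries did not overlap the 3 control libraries in CPM, 8 lower and 2 higher, and 26.1% of all tested genes showed the same.

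MKI67 (ENSG00000148773, GRCh38 chromosome 10, 128096659 to 128126423, minus strand) encodes Ki-67, the chromosome surface protein used as a proliferation marker. It stood at 1151, 1217 and 1313 CPM in control and at 1035, 1013 and 1003 CPM with PT2385. The groups did not overlap, and the log2 fold change was -0.27 (standard error 0.0565, edgeR adjusted p = 0.0115). KIF11 (ENSG00000138160, chromosome 10, 92574105 to 92655395, plus strand), the kinesin that pushes the spindle poles apart, stood at 174, 183 and 194 CPM in control and at 162, 153 and 142 CPM with PT2385. Its log2 fold change was -0.27 as well (standard error 0.0678, edgeR adjusted p = 0.0302). Both calls were lost when replicate 2 of either group was left out, and then no member was called. Without control replicate 3 only 1 member was called, and without PT2385 replicate 1 or 3 there were 8 and 7.

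The labels do not state that equal replicate numbers pair libraries. Deviations from the group means correlated between control and PT2385 libraries of the same number, but weakly for number 2 (0.453, 0.137 and 0.431). If the number is taken as a block in the model, 12 members were called, 11 lower and 1 higher. Of all genes 15.3% were then called (8.45% lower, 6.83% higher). The S-phase genes among them were MCM5 (log2 fold change -0.23, edgeR adjusted p = 0.0141), MCM6 (-0.18, 0.0311), RRM2 (-0.16, 0.0364) and POLA1 (-0.22, 0.0147). MCM5 and MCM6 are helicase subunits, RRM2 makes deoxynucleotides and POLA1 is the catalytic subunit of DNA polymerase alpha. The 7 lower mitotic genes were MKI67, KIF11, CENPF, CENPE, TTK, FOXM1 and MYBL2, and the higher one was AURKA, the Aurora A kinase (0.19, edgeR adjusted p = 0.0207).

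The kinetochore proteins CENPF and CENPE had the lowest fold changes and a wide spread between PT2385 libraries. CENPF (ENSG00000117724, chromosome 1, 214603185 to 214664574, plus strand) ran at 582, 560 and 590 CPM in control and at 540, 398 and 336 CPM in PT2385 replicates 1 to 3. All 3 treated libraries were lower, but PT2385 replicate 1 was close to control, and without the block the change of -0.45 (standard error 0.128) was not called (edgeR adjusted p = 0.0557). CENPE ran at 129, 131 and 138 CPM in control and at 132, 95.9 and 79.8 CPM with PT2385, so that the groups overlapped. HMMR, a spindle assembly factor, ran at 103, 102 and 101 CPM in control and at 105, 88.9 and 75.1 CPM with PT2385 and was called in neither fit. In all 3 genes, PT2385 replicate 1 was level with control or nearly so, and replicate 3 was the lowest.

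Further markers of S phase and mitosis were not called with PT2385, and of those named here only FOXM1 was called with the block. PCNA, the sliding clamp of DNA polymerase, stood at 105, 111 and 137 CPM in control and at 104, 115 and 123 CPM with PT2385. MCM2 stood at 170, 177 and 191 CPM in control and at 156, 165 and 194 CPM. CCNB1, which encodes cyclin B1, stood at 100, 93.9 and 98.8 CPM against 102, 105 and 114 CPM. Their fitted changes were -0.05 ± 0.0966, -0.06 ± 0.0815 and 0.12 ± 0.0664 on the log2 scale (estimate ± standard error). PCNA and MCM2 overlapped between the groups, whereas the 3 PT2385 libraries were above control for CCNB1. TOP2A, the topoisomerase that untangles sister chromatids, stood at 431, 414 and 444 CPM in control and at 421, 392 and 325 CPM with PT2385 (-0.18 ± 0.083). FOXM1 stood at 274, 295 and 279 CPM in control and at 239, 243 and 274 CPM (-0.17 ± 0.0663), and was called with the block (edgeR adjusted p = 0.0427). CCNE1 had the highest fold change of the members, although it was not called (0.35 ± 0.154, edgeR adjusted p = 0.225). It encodes cyclin E1, which drives entry to S phase, and stood at 5.71, 6.60 and 7.95 CPM in control and at 7.92, 8.76 and 9.10 CPM with PT2385. Its paralogue CCNE2 stood at 25.8, 32.2 and 36.2 CPM and at 29.98, 31.7 and 33.7 CPM.

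**Figure D2:**
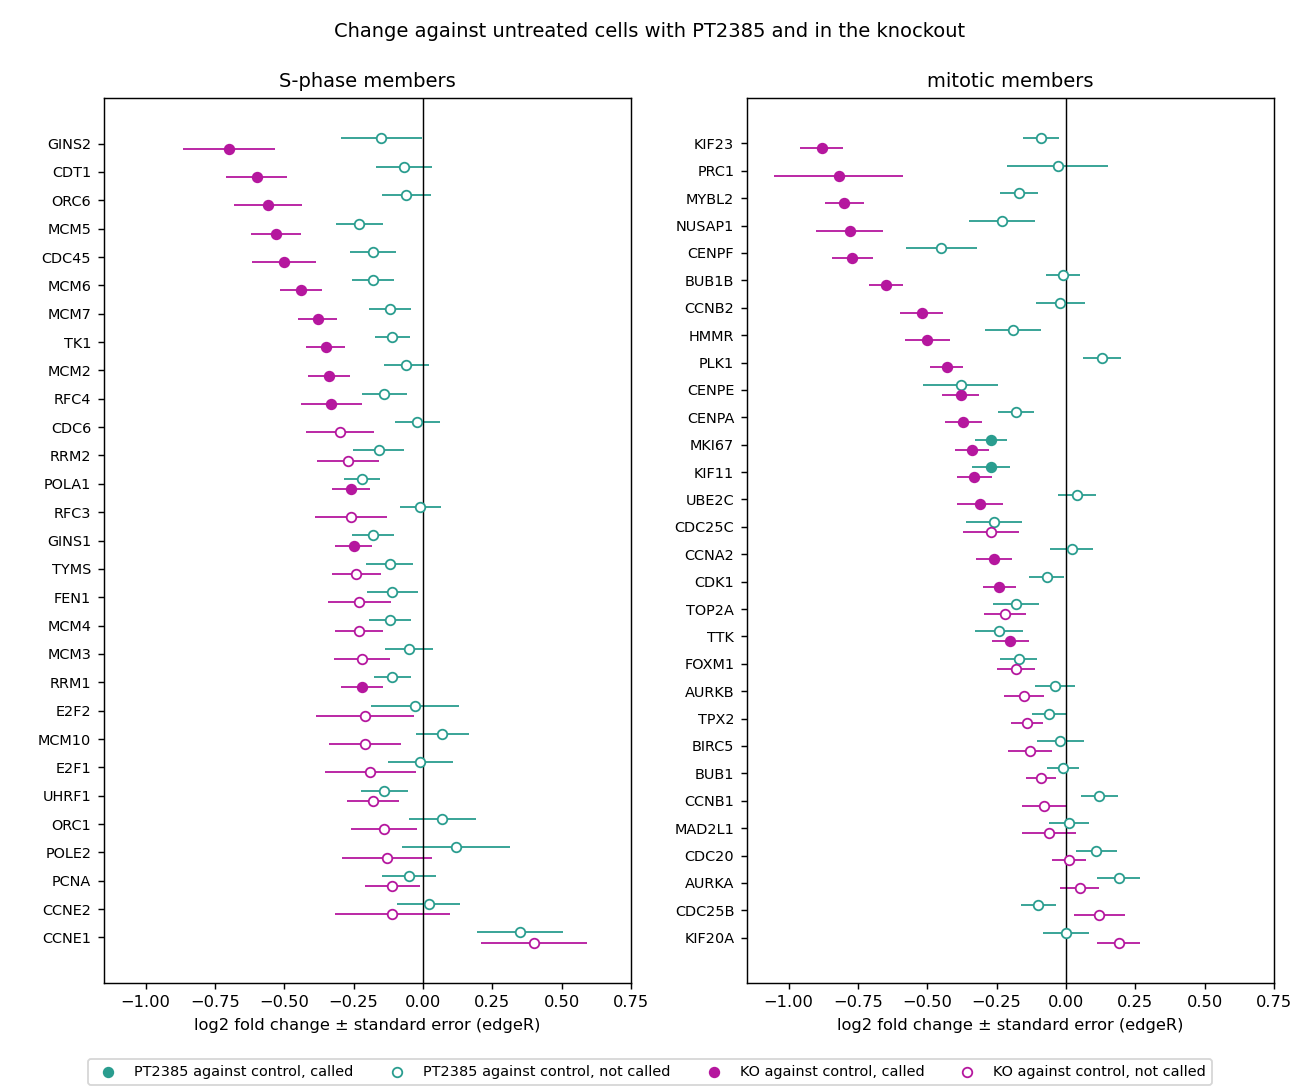
Log2 fold change of each S-phase (left) and mitotic (right) gene with PT2385 and in KO cells against the same 3 control libraries, with bars of 1 standard error and filled points for an edgeR adjusted p under 0.05. The KO points lie left of 0 for 54 of the 59 genes, with 30 filled, and the PT2385 points lie nearer to 0 with 2 filled.

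Members of both lists were lower in KO cells. In KO cells 30 of the 59 members were called lower than in control and none higher, against 15.4% lower and 14.7% higher of the 15192 genes tested (30.1% in all). The 30 were 13 of the 29 S-phase genes and 17 of the 30 mitotic genes. Median log2 fold changes were -0.25 and -0.27, against 0 for all genes, and 54 of the 59 members were below 0. The KO and control libraries did not overlap in 36 of the 59 members, all lower. Of all genes tested 43.8% did not overlap, counting both directions. With DESeq2 29 members were called, all lower, and with RLE or library-size scaling 29 and 33, all lower.

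Origin licensing was the largest group of S-phase genes. In KO cells 6 of its 10 genes were called lower, namely MCM2, MCM5, MCM6, MCM7, CDT1 and ORC6, with a group median of -0.36. MCM2 (ENSG00000073111, chromosome 3, 127598410 to 127622436, plus strand) stood at 132, 133 and 155 CPM in KO cells, below all control libraries (170, 177 and 191 CPM), a log2 fold change of -0.34 (standard error 0.0758, edgeR adjusted p = 0.00601). MCM5 fell from 175, 171 and 185 to 119, 105 and 140 CPM, the largest change in the helicase ring (-0.53, edgeR adjusted p = 0.00118). CDT1, which delivers the helicase to origins, fell by 0.60 and ORC6, a subunit of the origin recognition complex, by 0.56 on the log2 scale. MCM3, MCM4, CDC6 and ORC1 had values between -0.30 and -0.14 and were not called.

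Of the helicase activators, GINS1, GINS2 and CDC45 were lower and MCM10 was not called. GINS2 had the lowest fold change of the S-phase list (-0.70, standard error 0.165, edgeR adjusted p = 0.0079), from 29.7, 34.3 and 41.6 CPM in control to 19.9, 17.1 and 27.3 CPM. In the nucleotide supply group, the thymidine kinase TK1 (-0.35) and the reductase subunit RRM1 (-0.22) were lower. RRM2 and TYMS were not called at -0.27 and -0.24. Of the polymerase and clamp genes POLA1 (-0.26) and the clamp loader subunit RFC4 (-0.33) were lower. PCNA stood at 104, 100 and 119 CPM in KO cells, overlapping control (-0.11, edgeR adjusted p = 0.434).

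None of the 4 regulators of the G1/S transition was called. E2F1 stood at 58.6, 54.8 and 89.5 CPM in KO cells against 69.3, 73.9 and 91.4 CPM in control (-0.19, edgeR adjusted p = 0.419). CCNE2 stood at 25.5, 20.4 and 40.3 CPM against 25.8, 32.2 and 36.2 CPM. CCNE1 was the member with the highest fold change here too, at 7.73, 7.57 and 11.1 CPM against 5.71, 6.60 and 7.95 CPM in control (0.40 ± 0.190, edgeR adjusted p = 0.145). In each of the 3 genes KO replicate 3 was well above KO replicates 1 and 2.

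The S-phase count depended on that library. Without KO replicate 3, 45 members were called, 43 lower and 2 higher, with 25 of the 29 S-phase genes lower and a median S-phase log2 fold change of -0.41. The background of lower genes was then 16.8%. E2F1 was called lower without it (-0.45, edgeR adjusted p = 0.00322), as was CCNE2 (-0.44, 0.0232). Control replicate 3, the highest control library for 27 of the 29 S-phase genes, stayed in that fit. With replicate 3 of both groups left out, the S-phase median was -0.33, against 0 for all genes, and 23 of the 29 S-phase genes were called lower. The share of all genes called in that fit is not given here, so this count has no background beside it. Leaving out any other single library gave 22 to 28 members called. The 2 higher genes in the fit without KO replicate 3 were CDC25B and KIF20A (0.23 and 0.24).

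Among the mitotic genes, the lowest adjusted p in KO cells belonged to MYBL2, KIF23, CENPF, BUB1B and PLK1. MYBL2 (ENSG00000101057, chromosome 20, 43667019 to 43716495, plus strand) fell from 367, 358 and 375 CPM in control to 201, 193 and 230 CPM in KO cells. That is a log2 fold change of -0.80 (standard error 0.0704, edgeR adjusted p = 9.31e-06), and with PT2385 it stood at 307, 312 and 363 CPM. CENPF fell from 582, 560 and 590 to 374, 316 and 314 CPM (-0.77, standard error 0.0729, edgeR adjusted p = 1.59e-05). Both genes lie on chromosomes whose genes had a median change near 0, 0.02 and 0.01 on the log2 scale.

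KIF23 (ENSG00000137807, chromosome 15, 69414246 to 69448427, plus strand), a kinesin of the midzone that is needed for cytokinesis, fell from 97.0, 107 and 108 CPM to 51.2, 55.4 and 61.0 CPM in KO cells. With PT2385 it stood at 98.2, 97.97 and 98.1 CPM. BUB1B (ENSG00000156970, chromosome 15, 40161023 to 40221123, plus strand), which encodes the checkpoint protein BUBR1, fell from 84.9, 88.4 and 87.4 to 56.4, 53.9 and 54.5 CPM, and stood at 83.0, 87.0 and 88.8 CPM with PT2385. PLK1 (ENSG00000166851, chromosome 16, 23677656 to 23690367, plus strand), the Polo-like kinase of mitotic entry, fell from 214, 235 and 237 to 168, 172 and 163 CPM, and stood at 236, 248 and 270 CPM with PT2385. In these 3 genes the KO libraries lay below all other libraries, and the PT2385 libraries overlapped those of control.

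By role, 5 of 7 kinesin and spindle genes were lower in KO cells (KIF11, KIF23, NUSAP1, PRC1 and HMMR), as were 3 of 4 centromere and passenger genes (CENPA, CENPE and CENPF) and 3 of 6 genes of mitotic entry (CCNA2, CCNB2 and CDK1). The checkpoint genes BUB1B and TTK were lower, whereas BUB1 and MAD2L1 were not called at -0.09 and -0.06. UBE2C, the ubiquitin-conjugating enzyme of the anaphase promoting complex, was lower (-0.31, edgeR adjusted p = 0.0147), and CDC20, which activates that complex, stood at 241, 237 and 229 CPM in KO cells against 220, 238 and 250 CPM in control (0.01 ± 0.0618). MKI67 stood at 924, 957 and 992 CPM in KO cells, below all control libraries (-0.34, edgeR adjusted p = 0.00148). TOP2A stood at 376, 397 and 322 CPM, also below all control libraries, but was not called (-0.22, edgeR adjusted p = 0.051), although DESeq2 called it (adjusted p = 0.0401). FOXM1 stood at 226, 262 and 252 CPM (-0.18, edgeR adjusted p = 0.0672). CCNB1 stood at 103, 88.8 and 83.6 CPM, overlapping control (-0.08, edgeR adjusted p = 0.506). Of the 30 mitotic genes 26 were below 0, and the other 4 were CDC20, the kinase AURKA at 0.05, the phosphatase CDC25B at 0.12 and the kinesin KIF20A at 0.19, none of them called.

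Promoter words and calls could be set side by side for the mitotic genes. Of the 15 mitotic genes that were lower in KO cells and had a promoter sequence, 12 held the CHR word (80%). Of the 9 that were not called, 3 held it (33.3%). All 6 of the lower genes on chromosomes 15 and 16, which are set apart in the KO line, held the word, and among the lower genes of other chromosomes it was in 6 of 9 (66.7%). The CHR word was in 9.71% of the promoters of genes tested. The HIF core word was in 11 of the 15 lower genes (73.3%) and in 4 of the 9 not called (44.4%). The E2F word was in 3 (20%) and 0 of them, and CCAAT in 12 (80%) and 7 (77.8%). None of these contrasts was tested. MYBL2, the gene with the lowest adjusted p, held no CHR, CCAAT or E2F word in its window.

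**Figure D3:**
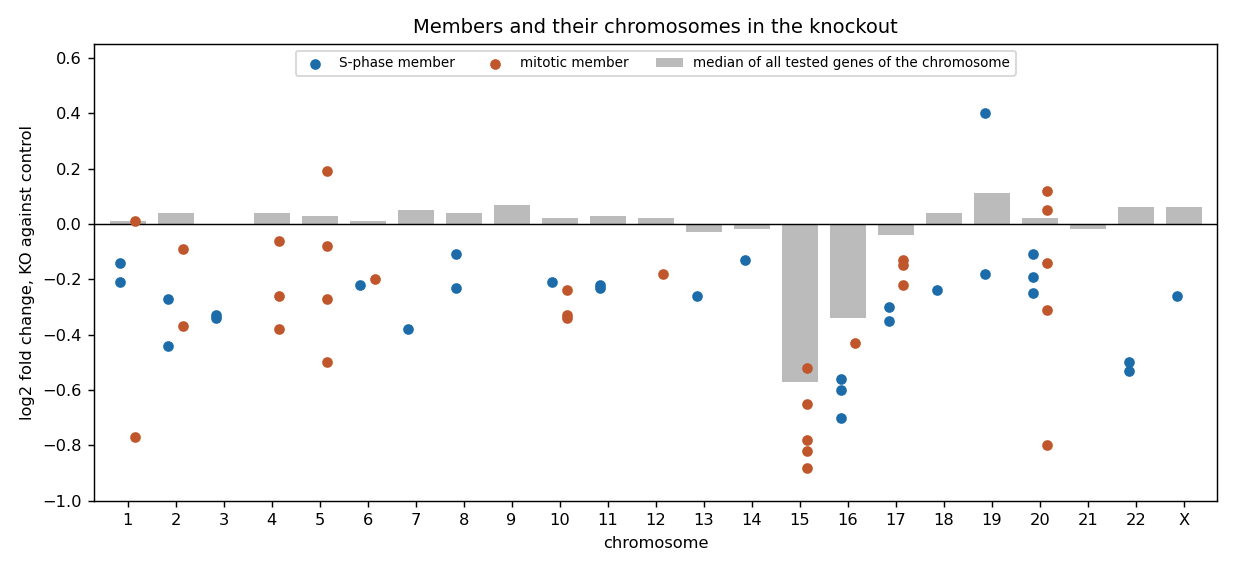
Log2 fold change of each member in KO cells against control by chromosome, with grey bars for the median of all tested genes on that chromosome. The bars of chromosomes 15 and 16 reach -0.57 and -0.34, the other bars lie between -0.04 and 0.11, and all 9 members on the former are below -0.40.

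Chromosomes 15 and 16 stood apart in the KO line, and 9 members lie on them. The median log2 fold change of the 498 genes tested on chromosome 15 was -0.57, with 65.7% called lower, and that of the 719 genes on chromosome 16 was -0.34, with 49.4% called lower. On the other chromosomes the median was 0.03. With PT2385 the medians were -0.02 and 0.02. The 5 members on chromosome 15 (BUB1B, CCNB2, KIF23, NUSAP1 and PRC1) and the 4 on chromosome 16 (CDT1, GINS2, ORC6 and PLK1) were all called lower. CCNB2 and BUB1B changed about as much as the median gene of chromosome 15 (-0.52 and -0.65), as did PLK1 for chromosome 16 (-0.43). KIF23 lay 0.31 below its chromosome's median and GINS2 lay 0.36 below, on the log2 scale. How much of the change in these 9 genes belongs to their chromosomes was not tested.

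Most of the members lie elsewhere. Of the 50 on the other chromosomes 21 were called lower in KO cells, against 11.8% of all genes there, and 45 were below the median of their own chromosome. When all genes of chromosomes 15 and 16 were left out before normalisation, 26 of these 50 were called lower, 12 of 26 S-phase and 14 of 24 mitotic genes, against 13.0% of all genes. The median log2 fold change of the 50 was -0.26 in that fit. In the fit with all genes it was -0.23 for the 50 and -0.26 for all 59 members.

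KO cells were also compared with PT2385 cells directly. Here 14 members were lower in KO cells and none was higher, with 10.3% of the 15402 genes tested called lower, 8.47% higher and 18.8% in all. The libraries did not overlap in 20 of the 59 members, all lower. Of all genes tested 35.4% did not overlap, counting both directions. The S-phase genes were CDT1, ORC6, MCM6, MCM7 and TK1, and the mitotic genes were BUB1B, CCNA2, CCNB2, KIF23, MYBL2, NUSAP1, PLK1, PRC1 and UBE2C. The smallest adjusted p belonged to KIF23 (log2 fold change -0.81, standard error 0.0786), BUB1B (-0.65, 0.0689), PLK1 (-0.59, 0.0707), MYBL2 (-0.66, 0.0888) and CCNB2 (-0.52, 0.0908). CCNB2, a second cyclin B, stood at 33.3, 32.8 and 34.7 CPM in KO cells against 48.4, 43.3 and 52.7 CPM with PT2385 and 49.0, 45.1 and 51.9 CPM in control.

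Of those 14 genes, 8 lie on chromosomes 15 and 16 and 6 elsewhere, the latter out of 50 against 6.90% of all genes there. With those chromosomes left out the count elsewhere was 5 of 50 against 6.72%. The genes called lower with PT2385 were not called between KO and PT2385 cells. MKI67 had a log2 difference of -0.09 (standard error 0.0575, edgeR adjusted p = 0.337) and KIF11 of -0.08 (standard error 0.0723, edgeR adjusted p = 0.524). A p that misses the threshold does not show that the levels were equal. The count also depended on single libraries, with 26 members called without KO replicate 3, 7 without KO replicate 1 and 8 without PT2385 replicate 2.

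Many of the 29 S-phase members also varied with the replicate number, across all 3 groups. POLE2 went the other way, with a log2 difference between replicates 3 and 1 of -0.34, and was not called. In a model of all 9 libraries with group and replicate number, 15 of the 59 members differed between replicate numbers, against 2.61% of the 15655 genes tested. Of these 14 were S-phase genes, all higher in replicate 3 than in replicate 1, as were 1.41% of all genes, and the other was BIRC5 (survivin), a mitotic passenger protein, also higher. The median difference between replicates 3 and 1 was 0.28 for S-phase and 0.06 for mitotic genes on the log2 scale, against -0.004 for all genes tested. Replication genes outside the members showed less of this. Of 40 such genes 1 was called, beside 2.61% of all genes, and their median difference was 0.12. Of 46 further mitosis genes 2 were called, with a median of 0.06. Replicate 3 was the highest library in each of the 3 groups for 26 of the 29 S-phase genes and for 5 of the 30 mitotic genes. This pattern was not counted over all genes. What the replicate number stands for is not given in the labels.

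**Figure D4:**
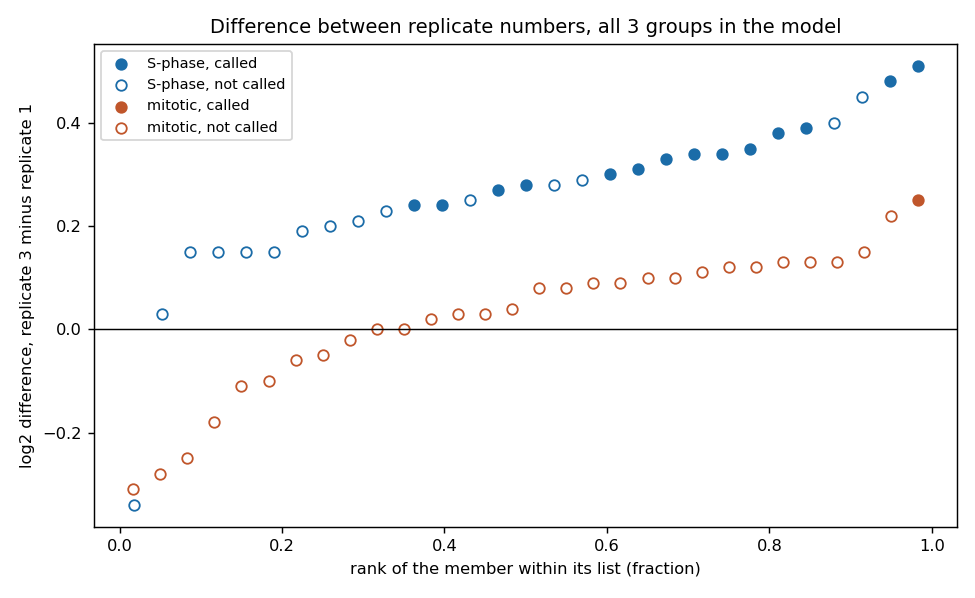
Difference between replicates 3 and 1 (log2, from the model with group) of each S-phase and mitotic gene, in order of size within its list, with filled points for an edgeR adjusted p under 0.05. The S-phase points lie above 0 for 28 of 29 genes, and the mitotic points lie on both sides of 0.

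The smallest p for the replicate number belonged to E2F1, ORC1, MCM3, E2F2 and UHRF1. E2F1 (ENSG00000101412, chromosome 20, 33675477 to 33686385, minus strand), the activator of the G1/S wave, stood at 91.4, 90.8 and 89.5 CPM in replicate 3 of control, PT2385 and KO, and at 69.3, 67.5 and 58.6 CPM in replicate 1. Its log2 difference was 0.48 (edgeR adjusted p = 0.00963). ORC1, the largest origin recognition subunit, stood at 61.5, 68.0 and 57.8 CPM in replicate 3 and at 49.6, 48.3 and 44.5 CPM in replicate 1 (0.39, edgeR adjusted p = 0.0124). In both genes the 3 libraries of replicate 3 were above all libraries of replicates 1 and 2.

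MCM3 stood at 182, 178 and 162 CPM in replicate 3 of control, PT2385 and KO against 153, 146 and 123 CPM in replicate 1 (0.31, edgeR adjusted p = 0.0159). E2F2 stood at 30.1, 29.6 and 26.8 CPM against 25.6, 21.8 and 19.3 CPM (0.38, edgeR adjusted p = 0.0182). UHRF1, which brings maintenance methylation to newly copied DNA, stood at 268, 247 and 246 CPM against 223, 200 and 197 CPM (0.30, edgeR adjusted p = 0.02). Within each group the third replicate was the highest for each of these genes. Without the control libraries, or without the PT2385 libraries, none of the members was called for the replicate number, and only 0.214% and 0.079% of all genes were. The S-phase medians then stayed at 0.31 and 0.28. Without the KO libraries 6 were called, all S-phase genes, with a median of 0.24.

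**Figure D5:**
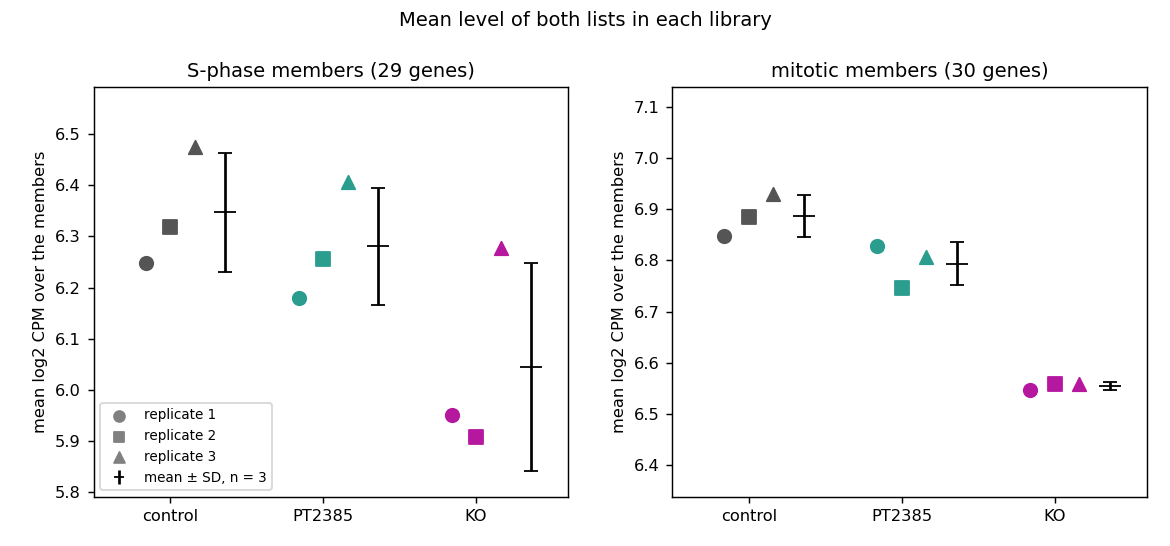
Mean log2 CPM over the S-phase genes (left) and over the mitotic genes (right) in each library, with symbols for the replicate number and bars for the mean ± SD of 3 libraries. Replicate 3 (triangles) is the highest S-phase library of every group, and the KO libraries lie below all others in the mitotic list.

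The difference between the lists can be seen in their mean levels. The mean log2 CPM over the mitotic genes was 6.85, 6.88 and 6.93 in control, 6.83, 6.75 and 6.81 with PT2385, and 6.55, 6.56 and 6.56 in KO cells. Over the S-phase genes it was 6.25, 6.32 and 6.47 in control, 6.18, 6.26 and 6.41 with PT2385, and 5.95, 5.91 and 6.28 in KO cells. The mitotic mean was lower in all KO libraries than in all others and spread little (SD 0.007, n = 3), whereas the S-phase mean of KO replicate 3 was above that of control replicate 1. Between libraries of the same number, KO minus control was -0.30, -0.41 and -0.20 for S-phase genes and -0.30, -0.32 and -0.37 for mitotic genes. PT2385 minus control was -0.07, -0.06 and -0.07 for S-phase genes and -0.02, -0.14 and -0.12 for mitotic genes. The S-phase minus mitotic level was -0.54 ± 0.076 in control, -0.51 ± 0.125 with PT2385 and -0.51 ± 0.200 in KO cells (mean ± SD, n = 3), differing between groups by less than the spread.

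Further genes of the same processes were counted in the same way. Of 40 other replication genes 15 were lower (37.5%) and 1 higher in KO cells, and of 46 other mitosis genes 24 were lower (52.2%) and none higher, against 15.4% lower of all genes. With PT2385 the other mitosis genes had 7 lower (15.2%), against 4.62% of all genes, and the other replication genes had 2 (5.0%), a share near that of all genes. The replication genes of smallest p in KO cells were DUT, which removes dUTP (-0.83, standard error 0.0723), and TICRR, which recruits CDC45 (-0.71, standard error 0.0656). DUT, TICRR and KNL1 lie on chromosome 15, and ASPM lies on chromosome 1. TICRR was also lower with PT2385 (-0.31, edgeR adjusted p = 0.00976). Of the mitosis genes, the kinetochore scaffold KNL1 (-0.97, standard error 0.0638) and the spindle protein ASPM (-0.96, standard error 0.0776) had the smallest p in KO cells. With PT2385 these were CEP55 (-0.28) and the condensin subunit NCAPG (-0.31). Against PT2385, 8 other replication genes were lower in KO cells (20%), led by DUT (-0.80) and GINS3 (-0.67), where 10.3% of all genes were. The 5 other mitosis genes that were lower (10.9%, near that of all genes) were led by KIF22 (-0.69) and NEK2 (-0.47), and 1 was higher. GINS3 and KIF22 lie on chromosome 16.

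Regulators of these waves were mixed. Of 15 E2F, pocket protein and MuvB genes 5 were lower (33.3%) and 1 higher in KO cells, against 15.4% lower and 14.7% higher of all genes. The higher gene was LIN9, a MuvB subunit, at 38.3, 37.4 and 43.0 CPM against 24.8, 24.1 and 22.9 CPM in control (0.74, standard error 0.0878), and RBL2, a pocket protein of DREAM that lies on chromosome 16, was lower (-0.60, standard error 0.0816). With PT2385 only the repressor E2F7 was called, lower (-0.43, edgeR adjusted p = 0.0012), and LIN54 was next by p but not called (-0.24). Against PT2385, LIN9 was higher (0.79) and E2F4, also on chromosome 16, lower (-0.52) in KO cells.

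Of the 4 CDK inhibitors tested, CDKN1A, which encodes p21, was higher in both comparisons. It stood at 45.8, 47.2 and 42.6 CPM in control, 66.9, 63.8 and 73.1 CPM with PT2385 and 204, 232 and 180 CPM in KO cells. The log2 fold change was 0.58 with PT2385 (standard error 0.0769, edgeR adjusted p = 0.000441) and 2.20 in KO cells (standard error 0.0951, edgeR adjusted p = 3.72e-08), and the groups did not overlap. CDKN2C was lower in KO cells (-0.29) and CDKN2D was not called with PT2385 (-0.30). These comparisons share the 3 control libraries. Of the 7 renal markers 3 were higher and 2 lower in each of these comparisons. CA12 (-1.46 with PT2385, -3.37 in KO cells) and PAX2 (-0.44 and -1.30) were lower, and CDH6 (1.38 and 1.03), KRT18 (0.47 and 0.85) and KRT8 (0.26 and 0.54) were higher. The HIF2α targets NDRG1 (-3.54), EGLN3 (-3.14), SLC2A1 (-2.31) and VEGFA (-2.12) changed far more with PT2385 than any of the 59 members did.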

How the data were processed

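The authors trimmed reads with cutadapt, aligned them to hg38 (GRCh38) with STAR and counted them on Ensembl genes with featureCounts, per the labels and the study's methods, and deposited raw counts per gene without normalisation. The annotation release, tool versions and strand setting are not given in the sources used here. All 9 columns were mapped to samples by name, and groups, dose and time were taken from the labels.

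Symbols and positions came from GENCODE v44 for 58207 of the 58735 identifiers. Each pair of groups was compared on its own in R 4.3.3 with edgeR 4.0.16 (TMM, filterByExpr with a minimum count of 10, quasi-likelihood F test, Benjamini-Hochberg adjustment over all tested genes), and an adjusted p under 0.05 was called. The replicate number was tested in an additive model of all 9 libraries by an F test with 2 degrees of freedom. Log2 CPM over a list used a prior count of 2. Totals of 11881000 to 14730081 counts limit the precision for low genes such as PRC1, POLE2 and CCNE1. The steps were tested on simulated data.

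Whether equal numbers pair libraries was checked by correlating deviations from the group means over 10140 genes with at least 100 counts. Control and PT2385 gave 0.453, 0.137 and 0.431 for numbers 1 to 3, all over 0.1, so the blocked fit is given beside that comparison. PT2385 replicate 2 correlated nearly as well with control replicate 1 (0.0918), so the pairing is weak for number 2. For KO the values were not all over 0.1, and against PT2385 they were 0.348, 0.0915 and 0.415.

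Alternatives were DESeq2 1.42.0, scaling by RLE or by library size alone, testing without the low-count filter, the replicate block, all 9 libraries in 1 model, a prior count of 0.5, and leaving out each library or each group. Leaving out chromosomes 15 and 16, and replicate 3 of both groups, were added after seeing the data. The members and gene lists were chosen with earlier results of these data known. Genes with values in every library are MKI67, PCNA, MCM2, TOP2A, CCNB1, CCNE1, CCNE2, E2F1 and FOXM1, the 5 called members of smallest p in each comparison and direction, and the 5 of smallest p for the replicate number. CENPE, HMMR, MCM5, GINS2, CDC20, LIN9 and CDKN1A were added after their values were seen. Promoter sequences were from RefSeq (GRCh38.p14), and 9 members had none (MCM4, MCM5, CCNE2, AURKA, TTK, TPX2, BIRC5, FOXM1 and UBE2C). One gene of the other replication list is not reported here by name.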

Additional observations from a re-analysis of the deposited data

How the results depend on the processing

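With the replicate number as a block, 2305 genes and 12 members were called with PT2385, 44 members in KO cells (43 lower, 1 higher) beside 36.2% of all genes, and 24 in KO against PT2385 cells, all lower, beside 24.6%. For KO the replicate numbers are not shown to pair the libraries, since same-numbered deviations correlated at 0.319, 0.056 and 0.481 with control and KO replicate 2 correlated best with control replicate 1 (0.293). Without the filter on low counts, 5 members were called with PT2385 and 22 in KO against PT2385 cells. The share of all genes called in these fits is not given here. For the replicate number 25 members were called without that filter, 19 S-phase and 6 mitotic, beside 5.16% of the 30101 genes tested. All 19 S-phase genes were higher in replicate 3 than in replicate 1, but only 2 of the 6 mitotic genes were. Library-size scaling moved the median S-phase change with PT2385 to -0.08. Leaving out chromosomes 15 and 16 left 5 members in KO against PT2385 cells. Leaving out replicate 3 of both groups gave 4 members with PT2385 and 27 in KO against PT2385 cells. Against control, the same fit called 39 members lower and 1 higher in KO cells. The shares of all genes called without replicate 3 of both groups are not given here, so these counts have no background beside them. For the replicate number, 0 members were called without the control libraries, 0 without the PT2385 libraries and 6 without the KO libraries. The cause of these shifts was not tested, beyond the smaller number of libraries or genes in the fits that leave some out.

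Leaving out each library in turn gave 574 to 1451 genes and 0 to 8 members with PT2385, with a median S-phase change of -0.16 to -0.04. In KO cells it gave 3344 to 5094 genes and 22 to 45 members, with a median S-phase change of -0.41 to -0.19 and a mitotic one of -0.30 to -0.23. In KO against PT2385 cells it gave 1836 to 3190 genes and 7 to 26 members, with a median S-phase change of -0.35 to -0.09. Of the members called in KO cells, RRM1 and TTK each lost the call in 5 of 6 such fits, PRC1 and RFC4 in 4, and GINS1 and POLA1 in 3. With DESeq2 the calls of RRM1 and TTK in KO cells were lost (adjusted p = 0.0616 and 0.107). No called change of a named gene turned its direction under these scalings, tests, filters or left-out libraries.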
